A study of Homo sapiens with 6 samples.

Results

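ABCA5, ABCA6, ABCA8, ABCA9 and ABCA10 are neighbouring genes on chromosome 17 that encode lipid transporters of the ATP-binding cassette (ABC) A subfamily. They are described here by the HepG2 chromatin captured outside the cells by the tandem Tudor domain (TTD) of the human protein UHRF1. The genes were chosen by the width of the TTD peak at ABCA9 in the same peak list that gives all values here. They are 5 of 20033 protein-coding genes, and 20 of the 31569 TTD peaks lie at least partly in their cluster.

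TTD binding was measured by CIDOP, a pull-down that works like ChIP with a tagged reading domain in place of the antibody. Native mononucleosomes were released with MNase from untreated HepG2 cells, a single established line from a hepatoblastoma, and captured with GST-UHRF1-TTD (residues 126-280). The series has 6 libraries in 3 groups of 2 biological replicates, namely TTD CIDOP, ChIP of H3K9me2, and input. The values come from the TTD CIDOP group alone, whose 2 replicates the authors averaged before calling 1 list of broad peaks, and the other groups were not used here. The list gives the position and width of each peak and no height, score or read depth, so neither a spread between replicates nor the depth behind a peak can be given. Binding here means this capture of released chromatin, and where UHRF1 sits in the cells was not measured. Capture of a region from all cells and from a share of the cells cannot be told apart. The list holds no expression values, so the labelled cell type was not checked against marker genes.

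ABC transporters use the energy of ATP to move substrates across membranes, and those of the A subfamily carry mainly sterols and phospholipids. The genes of this cluster arose by duplication and stand head to tail, and several of them are known to respond to the cholesterol load of macrophages. UHRF1 joins the maintenance of DNA methylation to histone marks, and its TTD reads the H3 tail carrying H3K9me2 or H3K9me3. The study reports stronger binding of the TTD where the same tail also carries H3K4me1.

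TTD peaks filled a large share of the cluster, and most of that share lay at ABCA9 and at the neighbouring 3′ part of ABCA6. Cover is used here for the percentage of the bases of a region that lie in TTD peaks. On hg38, the cluster ran from the 3′ end of ABCA8 to the 5′ end of ABCA5 (chr17:68867289-69327244), a length of 460.0 kb. All 5 genes lay on the minus strand, in the order ABCA8, ABCA9, ABCA6, ABCA10 and ABCA5 along the plus strand. Peaks covered 23.0% of the cluster, beside 4.08% of chromosome 17 and 3.02% of the genome. The cover of the cluster was thus 5.62 times that of the chromosome and 7.59 times that of the genome. Input was not used here, so no comparison between chromosomes was corrected for their copy number. The density of peaks was 43.5 per Mb in the cluster, 15.5 per Mb on chromosome 17 and 10.2 per Mb in the genome. Compared with the chromosome, the cluster was higher by a larger factor in covered bases than in number of peaks.

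**Figure D1:**
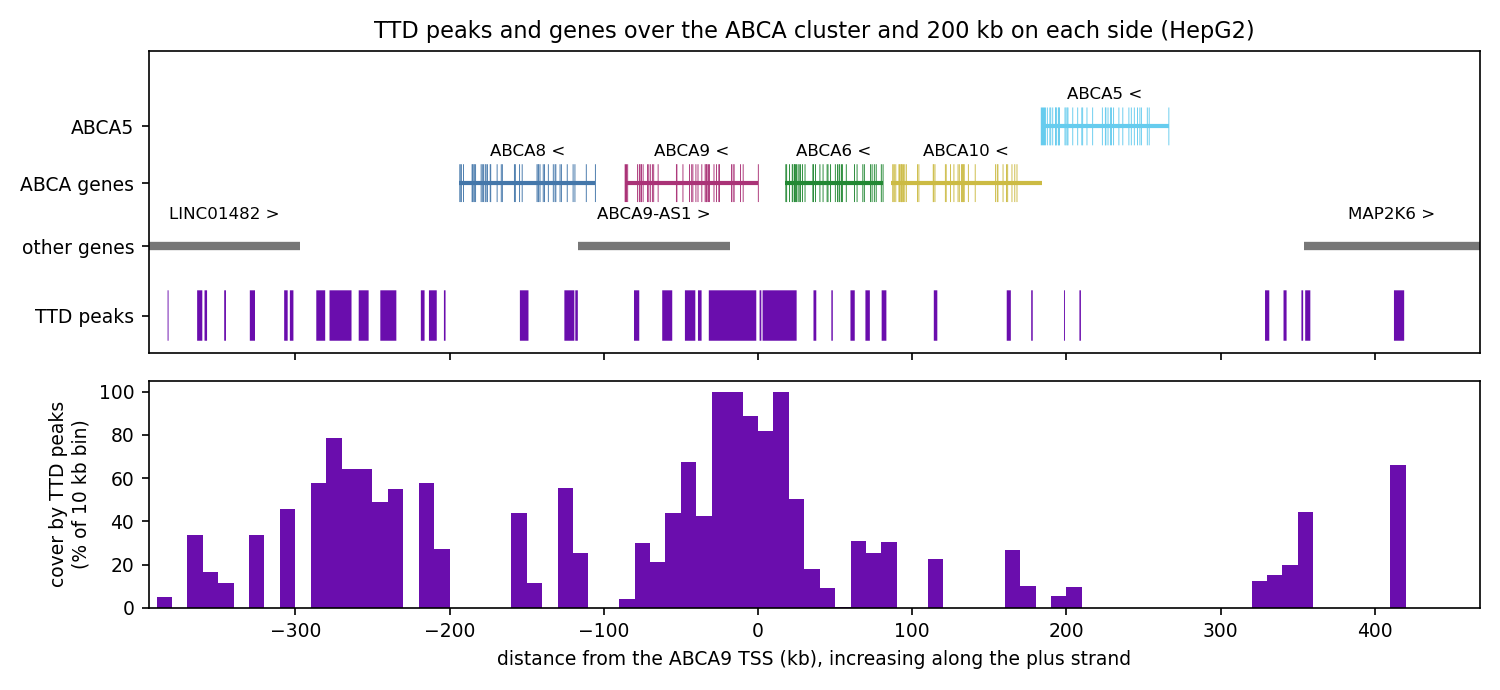
TTD peaks (bars, upper panel) with the annotated genes, and their cover in bins of 10 kb (lower panel, % of bin), against the distance from the ABCA9 transcription start site in kb, with < marking genes on the minus strand and ticks marking exons (the narrowest features widened to a visible line). The widest block of peaks surrounds the start of ABCA9, whereas the ABCA5 end of the cluster holds a peak-free stretch of 56.9 kb.

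All 5 genes had at least 1 bp of a peak in the gene body (5 of 5), as did 34.2% of all protein-coding genes and 57.1% of the 1871 protein-coding genes in the same length range of 63.2 to 97.6 kb. A peak lay within 2.5 kb of the transcription start site (TSS), taken as the 5′ end of the gene record, in 2 of 5, ABCA9 and ABCA6, and in 16.9% of all protein-coding genes. The TSS base itself was in a peak in 1 of 5, ABCA6, and in 2.94% of all protein-coding genes. When peaks narrower than the list median were left out, 4 of 5 had a peak in the gene body, as did 20.5% of all protein-coding genes. Because the peaks of this list chose the genes, these counts are a description, no test was made and nothing was read from them. Body cover fell in the order ABCA9 (57.6%), ABCA6 (26.1%), ABCA8 (15.5%), ABCA10 (6.07%) and ABCA5 (1.80%). The median over the 5 genes was 15.5%, beside 1.27% for genes of the same length range and 0% for all protein-coding genes. Without separate replicates it cannot be told whether neighbours in this order differ by more than their spread.

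**Figure D2:**
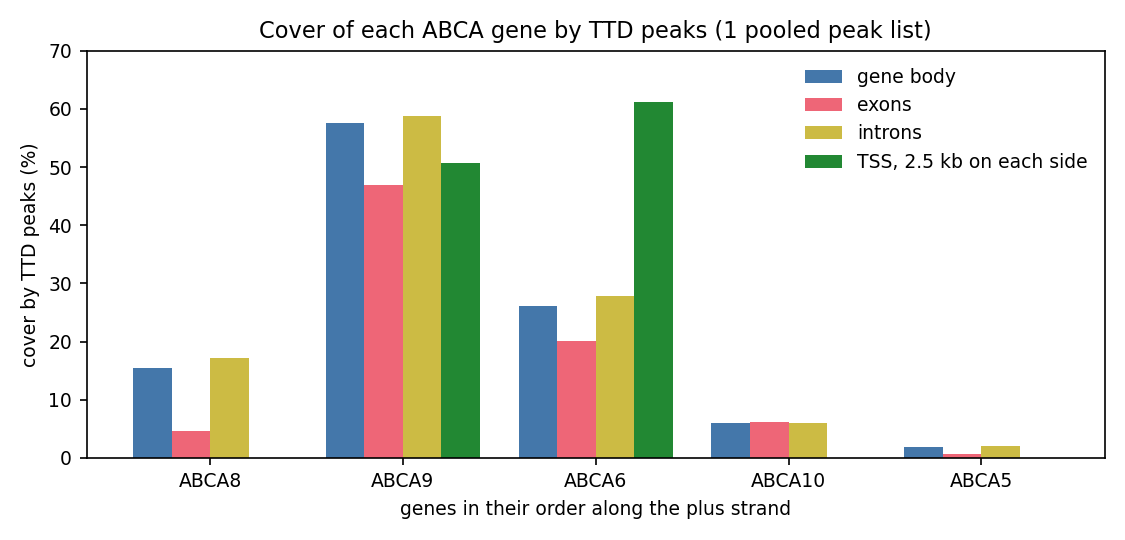
Cover by TTD peaks (%) of the gene body, the exons, the introns and the TSS window (2.5 kb on each side) of each ABCA gene, in order along the plus strand, from 1 pooled peak list without error bars. ABCA9 has the highest cover of gene body, exons and introns, ABCA6 has the highest cover of this TSS window (61.2%, but below ABCA9 in windows of 5 and 10 kb on each side), and ABCA8, ABCA10 and ABCA5 have none at the TSS window.

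The promoters of ABCA9, ABCA6 and ABCA5 are shown because they stood in 3 different settings: in a gap between peaks, inside a peak, and in the longest peak-free stretch of the cluster. Each sequence runs from 250 bases before to 50 bases after the RefSeq start (build GRCh38.p14), 5′ to 3′ on the minus strand, with CpG dinucleotides in capitals. The table of promoters matched 4 of the 5 genes, all but ABCA8. The positions are chr17:69060878-69061177 for ABCA9, chr17:69141846-69142145 for ABCA6 and chr17:69327084-69327383 for ABCA5.
ABCA9: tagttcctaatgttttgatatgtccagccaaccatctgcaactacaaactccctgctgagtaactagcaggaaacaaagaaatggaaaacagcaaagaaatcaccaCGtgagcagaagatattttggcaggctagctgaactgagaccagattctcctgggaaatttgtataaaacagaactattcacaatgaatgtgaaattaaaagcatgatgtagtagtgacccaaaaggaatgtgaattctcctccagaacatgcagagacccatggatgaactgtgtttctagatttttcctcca
ABCA6: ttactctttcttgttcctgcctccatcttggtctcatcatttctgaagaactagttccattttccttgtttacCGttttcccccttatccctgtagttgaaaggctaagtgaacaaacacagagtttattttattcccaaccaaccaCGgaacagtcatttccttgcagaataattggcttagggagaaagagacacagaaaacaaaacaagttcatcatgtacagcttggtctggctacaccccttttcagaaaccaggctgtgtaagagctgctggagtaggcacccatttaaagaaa
ABCA5: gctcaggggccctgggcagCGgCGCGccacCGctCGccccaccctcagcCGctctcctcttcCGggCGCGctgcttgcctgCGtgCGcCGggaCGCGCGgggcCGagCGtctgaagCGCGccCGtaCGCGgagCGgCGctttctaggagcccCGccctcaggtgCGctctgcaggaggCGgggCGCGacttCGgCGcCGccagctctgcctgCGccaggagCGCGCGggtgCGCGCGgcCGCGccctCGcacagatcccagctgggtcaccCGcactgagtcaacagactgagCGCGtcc
The ABCA9 sequence has 1 CpG and a GC content of 39.7%, and none of it was in a peak. The ABCA6 sequence has 2 CpGs and a GC content of 41.7%, and all of it was in a peak (100%). The ABCA5 sequence has 45 CpGs and a GC content of 76.3%, and none of it was in a peak. The covered ABCA6 promoter and the uncovered ABCA9 promoter are thus both poor in CpG, whereas the ABCA5 promoter is rich in it.

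Among 35116 RefSeq promoters of this length, the median was 14 CpGs. Promoters with as few CpGs or fewer made up 11% for ABCA9, 18.2% for ABCA6 and 97.1% for ABCA5. ABCA10 has 2 RefSeq starts, with 3 CpGs at the upstream promoter (chr17:69244799-69245098) and 1 at the downstream promoter (chr17:69228775-69229074), and neither promoter was in a peak. Letters of binding motifs of liver factors and of the TATA box were searched on both strands of the 5 promoters of these genes. TGTTTAC, a forkhead core, occurred in 1 of the 5, at ABCA6, 184 bases before the start, and in 3.42% of all promoters. TATAAA, the TATA box, occurred in 2 of the 5, at ABCA9 and at the upstream promoter of ABCA10, and in 11.5% of all promoters. TGTTTGC, also a forkhead core, occurred in none of the 5 and in 3.89% of all promoters. CAAAGTCC, part of an HNF4 element, and GTTAAT, part of an HNF1 element, also occurred in none of the 5, and in 1.2% and 6.88% of all promoters. None of the matches overlapped another, and a match here means only that the letters are present.

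ABCA9, a transporter whose substrate is not firmly established, held the widest TTD peak of chromosome 17. The gene (ENSG00000154258.17, chr17:68974488-69060949) is 86.5 kb long and held 5 peaks of 2350 to 30790 bp. The widest (chr17:69029041-69059830) lay wholly within the gene, over exons 2 to 11 of the canonical transcript and the introns on both sides of them. At 30790 bp it was 13.7 times the median width of the list (2250 bp). It ranked 14 of 31569 by width in the list and 1 of 1294 on chromosome 17, and alone covered 35.6% of the gene. A single peak thus covered most of the 5′ part of ABCA9. The 4 other peaks lay farther towards the 3′ end: 2350 bp over exon 17, 6750 bp over exons 20 to 22, 6500 bp within intron 25 and 3410 bp over exons 36 and 37. Of the 39 exons of the canonical transcript, 16 were wholly in peaks and no other was touched. Cover was 46.9% over exons and 58.8% over introns, exons being those of any annotated transcript. Genes with at least as much body cover numbered 121 of 20033 (0.604%), ABCA9 included. In its length range the count was 2 of 1871 (0.107%), and the other gene was HSD17B2 (59.3%). ABCA9 holds 47.2% of all peak bases of the cluster, which describes the choice of the genes and is not a test of it.

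The TSS of ABCA9 lay outside the peaks, in a gap with peaks close on both sides. The gap (chr17:69059831-69061980) spanned 2150 bp, and the widest peak ended 1119 bp downstream of the TSS. The nearest peak, 1150 bp wide, began 1032 bp upstream. Peaks covered 46.0% of the 2.5 kb upstream and 55.3% of the 2.5 kb downstream, or 50.6% of the whole window. With only peaks at or above the list median width, which leaves out the 1150 bp peak, the whole window had 27.6%. As the gap is wider than 1 kb on each side, the call of a peak at this TSS holds for a window of 2.5 kb and is lost with a window of 1 kb, where cover was 0%. Within 1 kb, 1 of 5 genes of the cluster (ABCA6) and 11.1% of all protein-coding genes had a peak. From the start of the widest peak to the end of the 22090 bp peak upstream of the gene, 94.9% of 57.0 kb lay in peaks. The start of ABCA9 was therefore a short interruption in a long covered stretch.

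**Figure D3:**
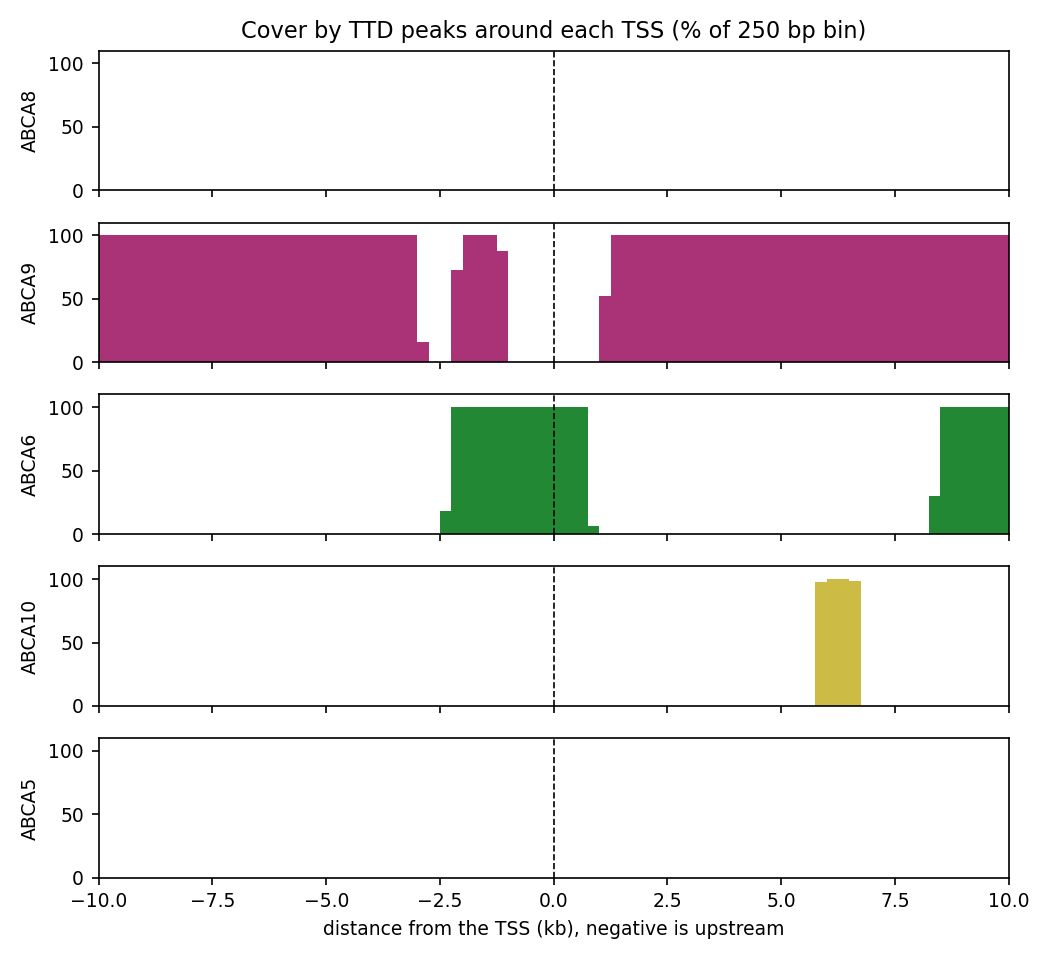
Cover by TTD peaks (% of each bin of 250 bp) against the distance from the TSS of each ABCA gene (kb, negative upstream), with the TSS as a dashed line. Peaks stand on both sides of an uncovered gap of 2150 bp at ABCA9, cross the TSS at ABCA6, and are missing from the window of 10 kb on each side at ABCA8 and ABCA5.

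ABCA6, a transporter gene known for its expression in liver, was reached by peaks at both ends. The gene (ENSG00000154262.13, chr17:69078702-69141895) is 63.2 kb long, the shortest of the 5, and held 6 peaks. At its 3′ end lay the second widest peak of the cluster and of chromosome 17 (chr17:69063911-69086000, 22090 bp, rank 56 of the list). It covered 14791 bp of the intergenic stretch towards ABCA9 and 7299 bp of ABCA6, with exons 31 to 39. At the 5′ end, a peak of 3060 bp (chr17:69141131-69144190) contained the TSS and exon 1. It covered 91.8% of the 2.5 kb upstream of the TSS and 30.6% of the 2.5 kb downstream, or 61.2% of the window. In windows of 5 and 10 kb on each side the order turned, with 30.6% and 23.2% at ABCA6 beside 70.7% and 85.4% at ABCA9. By the 5′ end of the gene record, ABCA6 was thus the only gene of the cluster with its TSS in a peak. Most of that peak lay upstream of the gene. The 4 peaks in between were narrower: 1810 bp over exon 23, 940 bp within intron 17, 2780 bp over exon 10 and 2870 bp within intron 6. Of 39 exons, 12 were wholly in peaks, 9 of them under the 22090 bp peak. At least as much body cover was found for 2.71% of all protein-coding genes and at least as much TSS window cover for 1.54%.

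ABCA8, a transporter linked to cholesterol efflux and to HDL, was covered in its interior. The gene (ENSG00000141338.15, chr17:68867289-68955392) is 88.1 kb long and had 3 peaks and a body cover of 15.5%. The peaks were 5570 bp wide over exon 18, 6460 bp wide over exons 4 and 5, and 1640 bp wide within intron 2. Only 3 of its 40 exons were in peaks, and cover was 4.54% over exons and 17.1% over introns. The last 39.3 kb of the gene, at its 3′ end, held no peak. No peak lay within 2.5 kb of the TSS, the nearest being 11272 bp downstream. The binding at ABCA8 was thus largely intronic and away from both ends of the gene.

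ABCA10, a cholesterol-responsive member in macrophages, had less body cover than ABCA9, ABCA6 and ABCA8 and no peak wider than 2660 bp. The gene (ENSG00000154263.18, chr17:69147214-69244846) is the longest of the 5 at 97.6 kb and had 3 peaks of 990 to 2660 bp, with a body cover of 6.07%. They lay over exon 23 (2280 bp), over exon 4 (2660 bp) and upstream of the canonical transcript but inside the gene record (990 bp). A stretch of 45.0 kb between the peaks at exons 23 and 4 was free of peaks. Cover was about equal over exons (6.16%) and introns (6.07%). The canonical transcript begins 16022 bp inside the gene record. No peak lay within 2.5 kb of its start or of the outer start, at the 5′ end of the record. Of all 12 annotated starts, 3 had a peak within 2.5 kb. The nearest peak to the outer start was 5756 bp downstream. Of all protein-coding genes, 15.9% had at least as much body cover, as did 21.2% of those in its length range, so its cover was low beside ABCA9, ABCA6 and ABCA8 and not beside genes of its length.

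ABCA5, a transporter of lysosomes and late endosomes, had the least binding. The gene (ENSG00000154265.16, chr17:69244311-69327244) is 82.9 kb long and had 2 peaks, 530 bp over exon 28 and 960 bp within intron 22, which together covered 1.80%. Its 5′ part was the longest peak-free stretch of the cluster, and the TSS lay 56914 bp from the nearest peak. The TSS window of ABCA5 was also the richest in CpG, with 31.6 per kb and a GC content of 47.1%. In the windows of the other 4 genes, CpG ranged from 4.20 to 8.80 per kb and GC content from 32.0% to 38.3%. At least as much body cover was found for 27.6% of all protein-coding genes and for 46% of those in the length range. ABCA5 was therefore close to the middle of genes of its length, unlike ABCA9 and ABCA6. Part of the CpG in the 5 kb window of ABCA5 is that of the promoter whose sequence is given. The bodies of ABCA5 and ABCA10 overlap by 536 bp, where no peak lay.

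**Figure D4:**
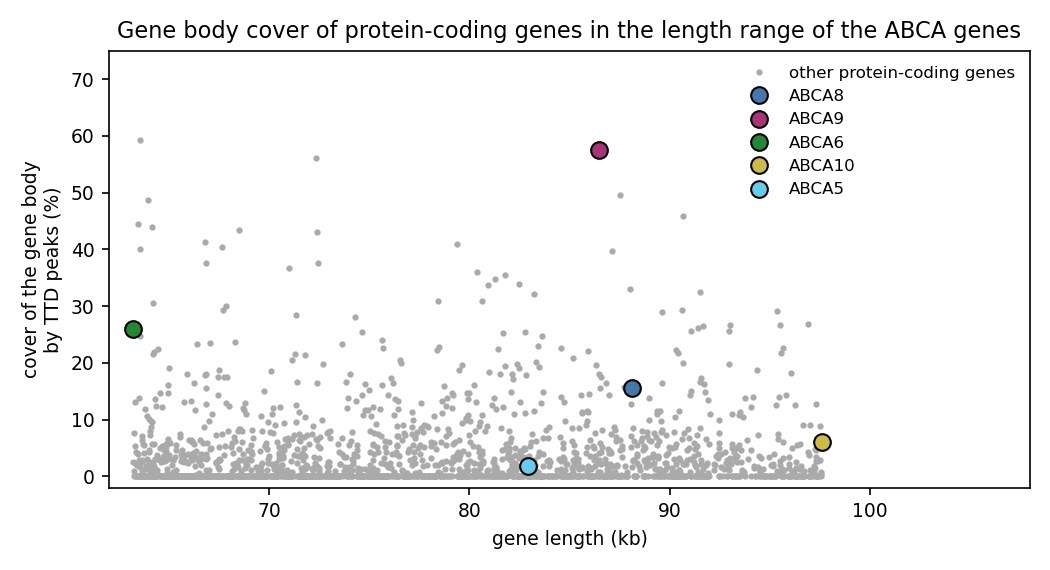
Cover of the gene body by TTD peaks (%) against gene length (kb) for the 1871 protein-coding genes between 63.2 and 97.6 kb, with the ABCA genes as large coloured points. ABCA9 (57.6%) is exceeded by HSD17B2 (59.3%) alone, ABCA6 lies at 26.1% and ABCA8 at 15.5%, and ABCA10 and ABCA5 lie among the bulk of genes.

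The cluster fell into a covered part from ABCA8 to ABCA6 and a sparsely covered part from ABCA10 to ABCA5. The former, of 274.6 kb, had 15 peaks and a cover of 34.9%. The latter, of 180.0 kb, had 5 peaks and a cover of 4.12%, close to that of chromosome 17 as a whole. The stretches between the genes differed as much. Peaks covered 89.8% of the 17.8 kb between ABCA9 and ABCA6, 43.2% of the 5.3 kb between ABCA6 and ABCA10 and 0% of the 19.1 kb between ABCA8 and ABCA9. Within the cluster, both stretches beside ABCA6 were thus covered and the stretch between ABCA8 and ABCA9 was not. Together the 3 stretches measured 42.2 kb with a cover of 43.2%, beside 20.9% for the gene bodies. Most of the peak bases between the genes lay in the stretch upstream of ABCA9, where the 22090 bp peak and the 1150 bp peak stood. With canonical transcripts as the gene model, cover between the genes was 32.9%.

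Of the 20 peaks of the cluster, 19 touched a gene body and 1, the 1150 bp peak upstream of ABCA9, lay only between genes. Their widths ran from 530 to 30790 bp with a median of 2720 bp, and 13 of them were at or above the median of the list. The 2 widest held 50.1% of the peak bases of the cluster, and the next in width was 6750 bp. Apart from these 2, the widest peaks of the cluster measured 6750, 6500, 6460 and 5570 bp. They ranked 2155, 2360, 2397 and 3386 of 31569 by width. In the whole list 726 peaks (2.3%) were 10 kb or wider, 23 of them on chromosome 17, and the widest of the list was 50780 bp. The third widest peak of chromosome 17 measured 20720 bp. Over the 5 genes, 34 of 196 canonical exons were wholly in peaks, and no exon was covered in part. Of the 19 peaks in gene bodies, 6 touched no canonical exon.

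**Figure D5:**
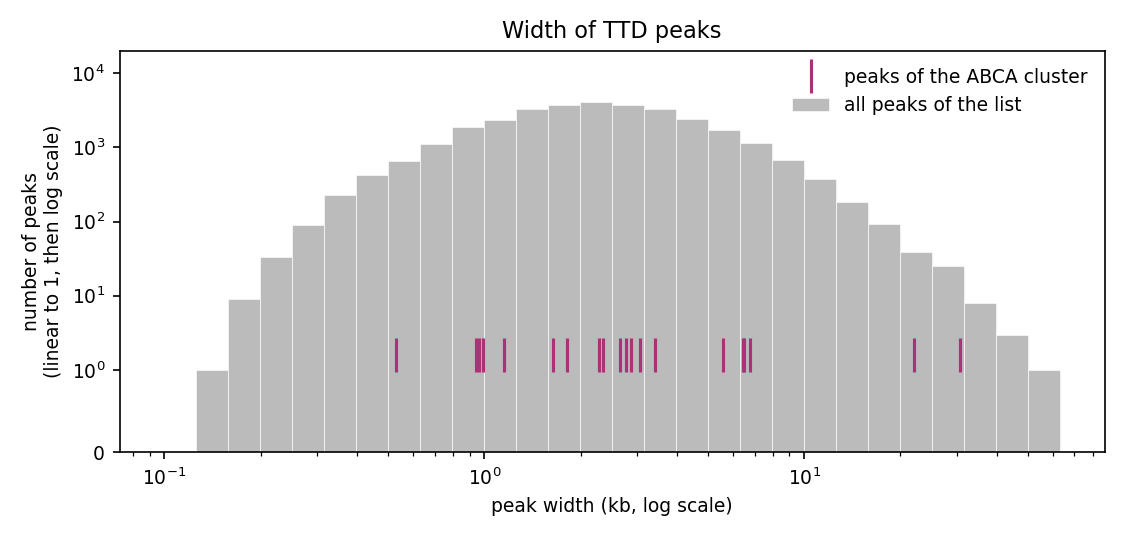
Number of TTD peaks (log scale above 1) against peak width (kb, log scale) for all 31569 peaks of the list (grey), with the 20 peaks of the ABCA cluster as ticks placed at their widths. Most ticks lie in the bulk of the list around its median of 2250 bp, whereas 2 lie in the tail above 10 kb.

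Adjoining windows of the length of the cluster place it beside the genome. As much cover was found in 74 of 6702 such windows (1.10%) and in 3 of 181 on chromosome 17, and median cover was 1.23% in the genome and 2.5% on chromosome 17. The difference was smaller in the number of peaks, as 3.03% of windows had as many, with a median of 3 peaks. Because the peaks of this list chose the genes, a small share of windows follows from the choice and is no test of rarity. The windows were laid from the first base of each chromosome, unsequenced bases included, and not around genes. The sequence of the cluster, which the choice of genes did not use, was poor in GC (36.4%, beside 45.3% for chromosome 17). GC content differed little between cluster peaks (37.3%) and the remaining cluster (36.2%). On chromosome 17 it was 45.6% in peaks, so the GC content of the cluster peaks was close to that of their surroundings and below that of other peaks of the chromosome.

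The flanks of the cluster differed from each other. The 200 kb on the ABCA8 side had 14 peaks and a cover of 30.0%, whereas the 200 kb on the ABCA5 side had 5 peaks and a cover of 7.90%. Across the ABCA5 end of the cluster, 119.4 kb were free of peaks (chr17:69270331-69389720). Both flanks together had a cover of 18.9%, which is 4.02 percentage points below the cluster. This difference depends on the size of the flank, since with 100 kb on each side the flanks had 27.3%, and the cluster minus flank difference was -4.33 percentage points. With 500 kb on each side the flanks had 13.6%, and the difference was 9.38 percentage points. Within 100 kb, cover was 45.4% on the ABCA8 side and 9.18% on the ABCA5 side. The cover of the ABCA8 side was thus above that of ABCA8 itself. Peaks there lay mainly in the 103.4 kb between ABCA8 and the noncoding gene LINC01482, with 7 peaks and a cover of 43.9%, among them peaks of 14260 bp and 10390 bp. LINC01482 itself, of 172.1 kb, had 10 peaks and a cover of 12.6%. On the other side, 6.69% of the 87.5 kb between ABCA5 and MAP2K6 lay in peaks. MAP2K6, a kinase of the p38 stress pathway on the plus strand, was the only protein-coding neighbour within 200 kb. It had 2 peaks in its 139.2 kb (7.15%) and 2 peaks at its TSS window (50.9%), the nearest 267 bp from the TSS.

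Annotated transcripts with other starts gave a wider view of the 5′ ends. ABCA9 had 8 distinct starts, of which 6 had a peak within 2.5 kb and 2 lay in a peak. ABCA6 had 7 starts, of which 4 had a peak within 2.5 kb and 3 lay in a peak. ABCA10 had 12 starts, of which 3 had a peak within 2.5 kb and 2 lay in a peak. A start thus lay in a peak in 3 of 5 genes, as in 7.94% of all protein-coding genes and in 10.7% of the 5993 with 7 to 14 starts, the range of these genes. ABCA8 and ABCA5 had 1 start with a peak within 2.5 kb among 11 and 14, and no start in a peak. Counted over all starts, 5 of 5 genes had a peak within 2.5 kb of a start, beside 2 by the 5′ end of the gene record. The same count gave 24.9% of all protein-coding genes and 30.4% of those with 7 to 14 starts, and nothing was read from it. Noncoding genes also overlap the cluster. ABCA9-AS1, on the plus strand (chr17:68944531-69042784), overlaps ABCA8 and ABCA9 and had 5 peaks, a cover of 33.3% and a TSS 411 bp from a peak. The microRNA genes MIR4524A and MIR4524B within ABCA6 had no peak, nor had SEC24AP1 in ABCA6, PRO1804 and ENSG00000285931 in ABCA10, or SNRPGP4 in ABCA5.

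The other lipid transporter genes listed all had less body cover than ABCA9, and most had little. Of the 7 other ABCA genes, 4 had a peak in the gene body, beside 34.2% of all protein-coding genes. A peak lay at the TSS window of 1, beside 16.9% of all, and their median body cover was 0.149%. These genes are 21.7 to 476.0 kb long, and 57.1% of protein-coding genes of 63.2 to 97.6 kb had a peak in the body. ABCA4, the retinoid transporter of photoreceptors, had 9 peaks, a body cover of 24.8% and a fully covered TSS window (100%). ABCA1, the exporter of cholesterol to apolipoprotein A1, had 3 peaks and a body cover of 12.9%. ABCA3, which serves lung surfactant, had 1.26% and ABCA13 had 0.149%, whereas ABCA2, ABCA7 and ABCA12 had none. ABCA4 was thus the nearest to ABCA6 in body cover within the subfamily. Of 8 lipid transporters of other ABC subfamilies, 5 had a peak in the gene body and 2 at the TSS window. The shares of all genes are the same 34.2% and 16.9%. These 8 are 13.6 to 115.8 kb long and had a median body cover of 0.873%. ABCB4, the phosphatidylcholine transporter of bile, had a body cover of 15.9% and a TSS window cover of 71.5%. Body cover was 10.0% for ABCD3 of peroxisomes, 5.11% for the sterol transporter ABCG8, 1.30% for the bile salt pump ABCB11 and 0.451% for ABCG1. ABCG5, the partner of ABCG8, had no peak in the body and a TSS window cover of 20.2%. The peroxisomal transporter ABCD2 and the sterol transporter ABCG4 had neither.

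The genes most like ABCA9 were found by the distance in percentage points between the pairs of body and TSS window cover, over 1 pooled list. They were TMEM247 (3.34), FCER1G (3.50), UGT2B7 (3.70), DHRS4L2 (4.53) and HSD17B2 (4.91). The TSS window was 2.5 kb on each side, and no other window was tried for this list. With windows of 1, 5 and 10 kb, the TSS window cover of ABCA9 itself was 0%, 70.7% and 85.4%. The 5 genes therefore hold for the 2.5 kb window alone. TMEM247 and FCER1G are only 4.9 and 5.5 kb long with 1 peak each, so their cover comes from a peak of 2860 bp and a peak of 3430 bp. The others had wide peaks, of 17330 bp at UGT2B7, 10560 bp at DHRS4L2 and 26100 bp at HSD17B2. HSD17B2, an enzyme that inactivates oestradiol and testosterone, was the nearest of them to ABCA9 in the width of its widest peak. UGT2B7, an enzyme that glucuronidates steroids and drugs, had 5 peaks, as had ABCA9.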

How the data were processed

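TTD CIDOP was done on 2 biological replicates of HepG2 cells. According to the submitters' processing notes and the methods of the study, reads were trimmed with Trimmomatic 0.38, inspected with FastQC 0.72 and mapped to hg38 with HISAT2 2.2.1. RPKM tracks from deepTools 3.3.2 were averaged over the replicates, and broad peaks were called with MACS2 2.1.1. The call used a main cutoff and a lower cutoff for linking, so a wide peak can hold weaker stretches between stronger ones. The authors then filtered the calls against a blacklist. By hand they also discarded calls judged to be artifacts or falsely large. Ranks by width therefore hold among the peaks that were kept. The deposited values used here are peak positions and widths in bp, without score or depth, so no interval for read counts can be given. Here, positions (1-based) were intersected with GENCODE release 44 and hg38, counting an overlap of at least 1 bp. Chromosome and genome cover use full chromosome lengths, unsequenced bases included. The interval functions were tested on simulated data. Python 3.11.15, numpy 2.4.6 and matplotlib 3.10.9 were used. Named genes are the 5 genes, protein-coding neighbours within 200 kb, other ABCA genes, other lipid ABC transporters, clusters of liver genes (whole, with their most and least covered genes), overlapping noncoding genes and the 5 genes nearest to ABCA9 in cover. Of the lipid ABC transporters, 1 is not reported here and was left out of the counts. LINC01482 was named after its values were seen. The members and lists were chosen with earlier results of these data known. Alternatives changed the peaks used, joining of peaks, peak edges, gene model, overlap, flank size, TSS window and TSS set. Individual libraries, H3K9me2 ChIP and input were not used here.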

Additional observations from a re-analysis of the deposited data

How the results depend on the processing

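A cover value was taken as moved when it left its 95% Wilson interval over units of 150 bp, and a count of genes when it differed by more than 1.5 times. Neighbouring units within a peak are not independent, so the interval is a working limit and not a measured spread. By these limits, 25 of 34 values of the cluster under the alternatives did not move. With only peaks at or above the median width, cover fell to 21.2% in the cluster and 17.1% in the flanks. With canonical transcripts, cover between the genes was 32.9%, as ABCA10 is shorter in that model. With flanks of 100 kb, flank cover was 27.3% and the cluster minus flank difference turned to -4.33 percentage points. With flanks of 500 kb, flank cover was 13.6% and the difference was 9.38 percentage points. A TSS window of 1 kb left 1 gene with a peak (11.1% of all protein-coding genes), and all transcript starts gave 5 genes (24.9%). The cause of the reversal was not tested.

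Of 55 values of single genes, 46 did not move and 9 did. The unmoved values include TSS window cover of ABCA8, ABCA10 and ABCA5, which was 0% in the main setting. Leaving out or narrowing peaks could not move these values, so the tally is no measure of stability. With windows of 1, 5 and 10 kb, TSS window cover was 0%, 70.7% and 85.4% at ABCA9 and 88.2%, 30.6% and 23.2% at ABCA6, so that ABCA9 was above ABCA6 in the larger windows. With wide peaks only, cover was 27.6% at the ABCA9 TSS window and 21.7% over the ABCA6 body, and ABCA5 lost both peaks, leaving 4 genes with a peak in the body (20.5%). The order of body cover was the same under the wide-peak, joined-peak, narrowed-peak and canonical-transcript settings.

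No paired analysis was possible because the replicates of TTD CIDOP were averaged into 1 list before deposit, and leaving out a replicate was not possible either. The list has no score, so width stood in for a stricter threshold, and the read depth behind each peak is unknown. Regions below the peak threshold cannot be told apart from unbound ones.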

Other observations

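Other clusters of liver genes give values for side by side reading, without correction for the copy number of their chromosomes. The albumin family (ALB, AFP and AFM), which encodes carrier proteins of plasma, spans 106.9 kb on chromosome 4 and had 4 peaks, a cover of 25.6% and a widest peak of 22530 bp. Its cover was near that of the ABCA cluster. A peak lay at the TSS window of each of its 3 genes, beside 16.9% of all protein-coding genes. ALB was the most covered in its body (38.2%) and AFM the least (16.7%).

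The SERPINA cluster of protease inhibitors on chromosome 14 spans 343.6 kb and had 29 peaks, a cover of 37.6% and a widest peak of 12850 bp. Peaks lay at the TSS window of 7 of its 9 genes, beside 16.9% of all protein-coding genes, where SERPINA4 and SERPINA5 share the same annotated start. Both its cover and its number of peaks were above those of the ABCA cluster. SERPINA11 was the most covered (82.6%), whereas SERPINA1 and SERPINA6 had no peak in the gene body.

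The alcohol dehydrogenase cluster on chromosome 4 spans 364.5 kb and had 14 peaks, a cover of 17.8% and a widest peak of 17190 bp. Of its 7 genes, 3 had a peak in the gene body, beside 34.2% of all protein-coding genes. ADH6 was the most covered (44.4%), whereas ADH1A, ADH1B, ADH1C and ADH5 had no peak in the gene body.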
